A study of Mus musculus with 4 samples.

Results

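The Ifi200 cluster is a run of related interferon-inducible genes on mouse chromosome 1. The 10 genes described here, Ifi202b, Ifi203, Ifi204, Ifi205, Ifi206, Ifi207, Ifi208, Ifi209, Ifi211 and Ifi213, were taken by symbol from a deposited table of 54152 gene symbols. They were chosen by these same counts, since several were nearly on in one group and nearly off in the other, so the comparison of their counts between the groups is given as a description, with no p-value. All 10 were found, and all 10 passed the filter on low counts, as did 18530 genes in all. Ifi206 and Ifi213 passed it only through their ff counts, and Ifi202b only through its dd counts. Whole uteri were taken at day 4 of pregnancy, and RNA was sequenced in 2 libraries with the p38α genotype ff and 2 with the genotype dd, all of strain C57. By the title, the study contrasts wild-type and p38α knockout uteri. Mapk14 encodes this kinase, which responds to cell stress. Age, any Cre driver and whether replicates were separate animals are not given in the labels, so errors and p-values reflect the spread among these 4 libraries alone, which may be technical.

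Ifi200 proteins belong to the PYHIN family, whose members carry a pyrin domain, which binds other pyrin domains, a HIN domain, which binds DNA, or both. Interferons induce many of them, and members of the family are known as sensors of DNA in the cytosol and nucleus and as regulators of transcription and cell growth, mostly in macrophages and other leukocytes. In inbred mice the locus is known to differ between strains in gene content and in the expression of single members. The labels give C57 for all 4 libraries, and gene counts do not show which form of the locus a library carries. In the uterus before implantation, interferon-inducible genes are expressed in epithelium, stroma, vessels and leukocytes, so a level in whole uterus is a sum over these cells. In such bulk RNA, fewer cells of a type and less RNA per cell cannot be told apart.

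Members lie between positions 173468485 and 174031810 of chromosome 1 (mm10, GENCODE release M21), a stretch of 563.3 kb. Ifi208 and Ifi209 are on the plus strand and the other members on the minus strand. In order along the chromosome they are Ifi206 (173468485 to 173491041), Ifi213 (173566283 to 173599274), Ifi209 (173630917 to 173647928), Ifi208 (173673675 to 173698395), Ifi207 (173723427 to 173741747), Ifi204 (173747293 to 173766943), Ifi211 (173896345 to 173913046), Ifi203 (173920407 to 173942672), Ifi202b (173962568 to 173982744) and Ifi205 (174011998 to 174031810). No member shared exon bases with a gene on the opposite strand, and the only exon overlap was of 37 bases between Ifi203 and Mndal, on the same strand.

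Promoter sequences (250 bases before to 50 after a gene's start, RefSeq, GRCm38.p6) were at hand for 9 of the 10 members, all but Ifi204. For Ifi206, Ifi207, Ifi209 and Ifi202b the whole sequence lay outside the GENCODE gene given above. What is found or missing there holds for the RefSeq start only. Those of Ifi206, Ifi208 and Ifi213 were nearly the same, with 98.9% identity between Ifi206 and Ifi208, 98.9% between Ifi208 and Ifi213 and 98.5% between Ifi206 and Ifi213 over the aligned bases. They are shown because Ifi206 and Ifi213 had 1 or 2 counts in each dd library, whereas Ifi208 had 25 and 34. The same 160 bases are given for each, with capitals at the 2 positions where they differ, and 160 bases upstream of Ifi202b, the member that moved the other way, follow for comparison, without capitals.
Ifi206, chr1:173491376-173491535, minus strand: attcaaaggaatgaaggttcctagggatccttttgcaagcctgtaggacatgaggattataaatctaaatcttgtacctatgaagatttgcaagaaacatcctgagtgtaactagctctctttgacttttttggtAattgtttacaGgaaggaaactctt
Ifi208, chr1:173673430-173673589, plus strand: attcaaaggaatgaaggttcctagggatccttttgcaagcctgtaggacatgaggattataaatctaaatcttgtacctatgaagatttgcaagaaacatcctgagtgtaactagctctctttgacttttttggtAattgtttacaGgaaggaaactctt
Ifi213, chr1:173599363-173599522, minus strand: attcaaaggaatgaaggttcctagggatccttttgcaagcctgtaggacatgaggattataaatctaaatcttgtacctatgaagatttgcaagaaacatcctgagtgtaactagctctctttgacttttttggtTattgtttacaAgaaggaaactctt
Ifi202b, chr1:173982935-173983094, minus strand: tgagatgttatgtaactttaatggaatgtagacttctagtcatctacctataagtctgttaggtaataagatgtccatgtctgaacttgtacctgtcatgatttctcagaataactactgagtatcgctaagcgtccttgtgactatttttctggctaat

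Nearer to the start, the promoters were searched on both strands for GAAA followed by any 2 bases and GAAA, the core of the interferon-stimulated response element (ISRE), the site bound by interferon-activated transcription factors. It was found in 7 of the 9 members with a promoter entry, against 3.99% of 27025 genes with promoters of the same length (300 bases), a figure set out as a description since the members are copies of one another. Ifi203 had 2 promoter entries and is counted and shown by entry 2, since entry 1 held no match. One match per gene is shown in capitals with 10 bases on each side, for Ifi205 1 of its 2 matches. They carry the letters GAAATCGAAA in Ifi203, Ifi206, Ifi207, Ifi208 and Ifi213, and GAAATTGAAA in Ifi205 and Ifi211.
Ifi206, chr1:173491339-173491368, minus strand: tgtctctgagGAAATCGAAAgctatgaacc
Ifi208, chr1:173673597-173673626, plus strand: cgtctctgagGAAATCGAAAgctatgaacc
Ifi213, chr1:173599326-173599355, minus strand: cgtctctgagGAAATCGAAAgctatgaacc
Ifi207, chr1:173741831-173741860, minus strand: cctagccaggGAAATCGAAAattaagaaca
Ifi203, chr1:173942508-173942537, minus strand: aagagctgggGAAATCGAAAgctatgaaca
Ifi205, chr1:174031870-174031899, minus strand: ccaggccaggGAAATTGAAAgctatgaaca
Ifi211, chr1:173913064-173913093, minus strand: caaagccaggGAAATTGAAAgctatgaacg
Ifi209, chr1:173630770-173630799, plus strand: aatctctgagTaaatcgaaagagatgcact
Ifi209 differed from the searched letters by G1T, counted from the first base of the searched letters, which is the capital in its line. No match was in the Ifi202b window, which held 1 match to TTCNNNGAA, the core of the GAS element of interferon gamma responses (9.55% of all genes with promoters). A match or its lack describes the letters only.

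The members fell into 2 genes with counts in ff and nearly none in dd, 1 gene with the reverse, and 7 genes with counts in both groups that were lower in dd.

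Ifi213, also named Pydc4 (pyrin domain containing), had 412 and 408 counts in ff replicates 1 and 2 and 1 count in each dd library. As CPM (counts scaled to a common library size, here the TMM-scaled one) that was 12.7 ± 0.510 in ff and 0.0377 ± 0.00659 in dd (SD, n = 2). The ratio of ff over dd was 343.1, with a 95% counting interval of 94.7 to 2838, which covers counting error only. A count of 3, the floor used here, stood for 0.0901 to 0.127 CPM, so the dd level of Ifi213 lay below it in both libraries. Ifi206 had 134 and 143 counts in ff against 2 in both dd libraries, and its ratio was 57.9 (22.4 to 214.2). In both genes the 2 replicates of a group were close together and the groups were far apart.

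Ifi202b encodes p202, which binds DNA, lacks a pyrin domain and restrains Aim2. It had 1 count in each ff library and 346 and 290 in the dd libraries, or 14.6 and 9.57 CPM. The ratio of dd over ff was 380.0 (95% counting interval 104.8 to 3145). By the mean of the authors' FPKM it was the member lowest in ff and highest in dd, at 0.0177 and 0.0189 FPKM against 8.58 and 5.66 FPKM. FPKM are fragments scaled to gene length and library size, so that levels of different genes can be set side by side. Ifi202b made up 0.0388% and 0.0454% of the summed FPKM of the 10 members in ff, and 35.3% and 31.1% in dd. Its change was opposite to that of every other member.

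Ifi203, a nuclear DNA-binding protein gene and the most abundant member in ff, had 3108 and 2980 counts in ff against 1079 and 1314 in dd. Its CPM went from 94.5 ± 1.63 to 44.5 ± 1.62, a dd level of 0.471 of the ff level (log2 change −1.09, SE 0.083 in the edgeR fit). This was the smallest log2 change among the members. By FPKM it stood at 13.9 and 14.2 in ff and 6.77 and 6.49 in dd, close to Ifi202b in dd, whose 2 libraries lay on both sides of these values.

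Ifi204 encodes p204, a relative of human IFI16 with roles in DNA sensing and differentiation. It had 1060 and 953 counts in ff against 239 and 206 in dd, or 31.2 ± 0.882 and 8.46 ± 2.34 CPM (log2 change −1.89, SE 0.22). Ifi211, also named Mnda, had 478 and 324 counts in ff against 94 and 76 in dd, or 12.4 ± 2.80 and 3.24 ± 1.04 CPM (log2 change −1.94, SE 0.31). Ifi207 had 395 and 378 counts in ff against 106 and 150 in dd, or 11.9 and 12.1 CPM against 4.49 and 4.95 CPM (log2 change −1.34, SE 0.17). For each of these 3 genes the lowest ff library was well above the highest dd library.

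Ifi205 was the least even member within groups. It had 774 and 489 counts in ff against 219 and 106 in dd, or 23.3 and 15.7 CPM against 9.27 and 3.50 CPM (log2 change −1.62, SE 0.50). Leaving out dd replicate 1 moved its log2 change to −2.47, and leaving out dd replicate 2 moved it to −1.07. The dd libraries differed by 1.29 on the log2 scale of CPM + 0.5, and the ff libraries by 0.55, yet the groups did not overlap.

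Ifi208 and Ifi209 were low throughout. Ifi208, also named Pydc3, had 130 and 129 counts in ff against 25 and 34 in dd, or 4.02 ± 0.167 and 1.09 ± 0.0455 CPM (log2 change −1.88, SE 0.24). Ifi209, also named Pyhin1, had 213 and 163 counts in ff against 13 and 21 in dd, or 5.82 ± 0.824 and 0.622 ± 0.101 CPM (log2 change −3.21, SE 0.29), which placed it between the near-off pair and the other genes. Ifi206, Ifi208 and Ifi213, with the near-identical upstream sequences above, thus had mean dd levels of 0.0175, 0.271 and 0.00296 of their ff levels.

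**Figure D1:**
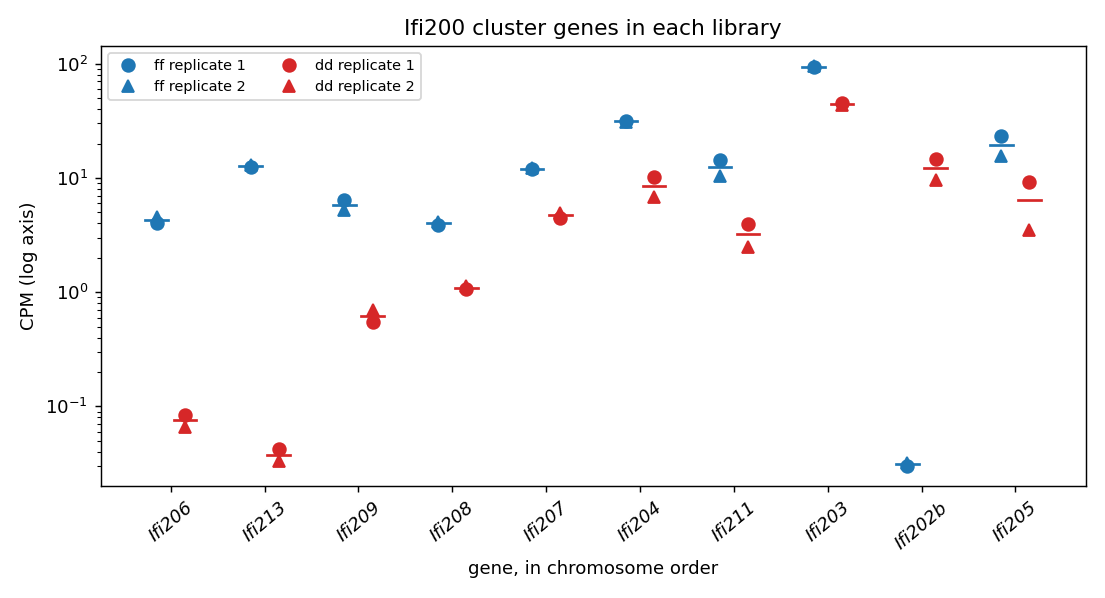
CPM of the 10 members in chromosome order, on a log axis, with ff libraries in blue, dd libraries in red, circles for replicate 1, triangles for replicate 2 and bars for the mean of 2 libraries. Ifi206 and Ifi213 fall below 0.1 CPM in dd, Ifi202b lies below 0.1 CPM in ff and near 10 CPM in dd, and the other 7 genes are lower in dd without leaving the measured range.

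Of the 10 members, 9 were lower in both dd libraries than in either ff library, where 31.3% of the 18530 tested genes were, and 1 was higher, where 31.6% were. With an edgeR adjusted p under 0.05 there were 8 lower members (3.86% of all tested genes) and 1 higher (4.52%), and either direction held for 8.39% of all tested genes. A dd mean of at most 0.5 of the ff mean was found for 9 members (6.50% of all tested genes) and one of at least 2 times for 1 (7.17%). These counts restate how the members were chosen and nothing is read from them. Over the whole table the balance of calls turned with the scaling. With TMM 838 were higher and 716 lower. With upper quartile factors the numbers were 748 and 830, and with total counts alone 751 and 1020. These scalings shifted genes by a median log2 of −0.051 and −0.084. The smallest member change was −1.09 (Ifi203), so no member could change direction under them. The median log2 change of the members was −1.88, against 0.00 over all tested genes.

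By mean FPKM the order of the members in ff was Ifi203 (14.1), Ifi204 (8.76), Ifi211 (6.93), Ifi205 (4.66), Ifi207 (3.50), Ifi213 (1.86), Ifi209 (1.64), Ifi206 (1.41), Ifi208 (0.764) and Ifi202b (0.0183). Among neighbours in that order, the 2 ff libraries of Ifi205 reached from 3.75 to 5.57 FPKM and those of Ifi211 from 5.81 to 8.05 FPKM, without overlap, while Ifi209 (1.47 to 1.80 FPKM) overlapped with Ifi206, whose lower library stood at 1.32 FPKM. In dd the order was Ifi202b (7.12), Ifi203 (6.63), Ifi204 (2.37), Ifi211 (1.81), Ifi205 (1.52), Ifi207 (1.38), Ifi208 (0.207), Ifi209 (0.175), Ifi206 (0.0246) and Ifi213 (0.00550). From Ifi203 to Ifi207 the genes kept their ff order, and neighbours among Ifi204, Ifi211, Ifi205 and Ifi207 overlapped in dd. Ifi202b moved from last to first and Ifi213 from the sixth to the last place. In dd Ifi202b (5.66 to 8.58 FPKM) overlapped with Ifi203 (6.49 to 6.77 FPKM), which was the higher of the pair in dd replicate 2.

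Summing the members makes the level independent of how reads were divided among them. The summed counts of the 10 members were 6705 and 5968 in ff and 2124 and 2200 in dd, or 196.5 ± 6.95 and 81.3 ± 12.2 CPM (SD, n = 2). The dd sum was 0.414 of the ff sum, and 0.352 when Ifi202b was left out. With Mndal and the pseudogene Ifi203-ps added, it was 0.371. The cluster as a whole therefore held fewer reads in dd, with the reads of Ifi202b included.

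How far reads could be exchanged between members was measured on the annotated transcripts, since the labels do not say how reads that map to several genes were handled. Of all stretches of 50 bases in the transcripts of a gene, none of Ifi202b was found in the transcripts of any other gene, on either strand. The share was 7.29% for Ifi207, 12.4% for Ifi203, 15.6% for Ifi213, 18.6% for Ifi205, 20.9% for Ifi208, 25.6% for Ifi206, 33.7% for Ifi209 and 72.8% for Ifi211, and 703 of 3512 stretches of Ifi204 were shared. Ifi213 shared most with Ifi208 (13.6% of its stretches), Ifi206 with Ifi208 (11.1%) and Ifi213 (10.9%), Ifi209 with Ifi214 (33.4%), and Ifi211 with Ifi205 (44.7%) and Ifi204 (30.1%). With stretches of 100 bases the shares fell to 3.30% for Ifi213, 13.1% for Ifi206 and 56.9% for Ifi211. Ifi211 thus shared the most sequence with other genes, and Ifi202b, Ifi207 and Ifi203 the least.

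**Figure D2:**
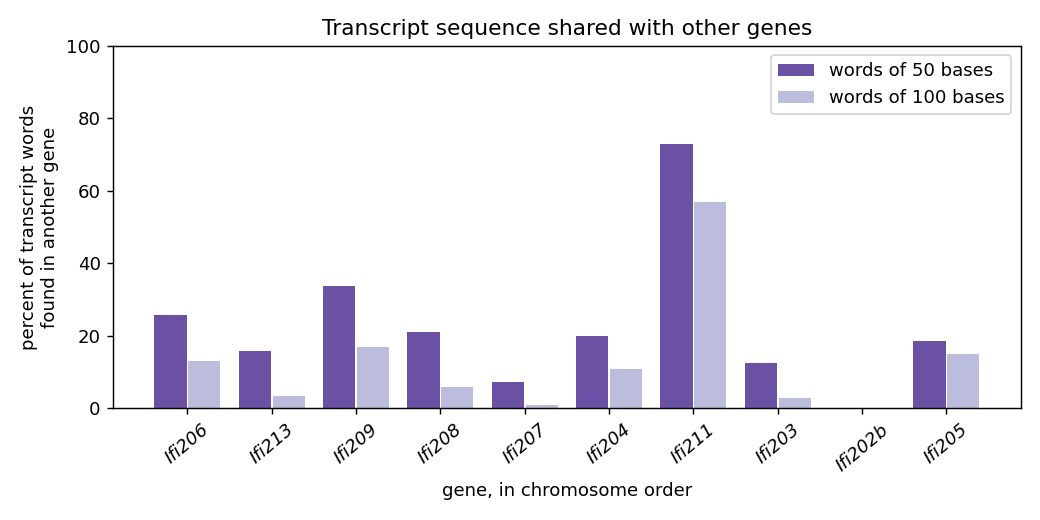
Percent of the stretches (words) of 50 bases (dark bars) and 100 bases (light bars) in each member's GENCODE M21 transcripts that also occur in transcripts of another gene. Ifi202b has none, and Ifi211 stands highest at 72.8% and 56.9%.

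Of the other genes of the family, 4 were in the table, and 3 of them passed the filter on low counts. Mndal, a nuclear protein gene of the same family, lies within the cluster (173849126 to 173942491). It had 2360 and 2358 counts in ff against 546 and 551 in dd, and fell from 73.3 ± 3.40 to 20.6 ± 3.48 CPM (log2 change −1.83, SE 0.14; edgeR adjusted p = 0.0164). The pseudogene Ifi203-ps (173776529 to 173798270) had 353 and 321 counts in ff against 53 and 65 in dd and fell from 10.5 ± 0.211 to 2.19 ± 0.0689 CPM (log2 change −2.25, SE 0.19; edgeR adjusted p = 0.0165). It shares 24.3% of its stretches of 50 bases with Ifi203. Mndal shares 19.6% of its stretches with other genes, most with the members Ifi211 (7.96%), Ifi205 (7.05%), Ifi203 (6.19%) and Ifi204 (5.14%). Ifi214 had 10 and 5 counts in ff and 3 in each dd library and was not tested.

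Aim2, which senses cytosolic DNA and builds an inflammasome, ends 2.45 kb before the first member, Ifi206. It had 166 and 188 counts in ff against 114 and 164 in dd, or 5.51 ± 0.742 and 5.12 ± 0.416 CPM, and its groups overlapped (log2 change −0.11, SE 0.21; edgeR adjusted p = 0.779). So 2 of 3 tested family genes outside the chosen members were called lower, both of them inside the cluster, against 3.86% of all tested genes. Both calls were lost without ff replicate 1 (adjusted p = 0.0504 for Mndal and 0.0583 for Ifi203-ps), at log2 changes of −1.88 and −2.23, and both held without any 1 of the other 3 libraries.

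Of the 16 tested genes other than members within 1 Mb of the cluster, 3 passed, all lower (18.8%, against 8.39% of all tested genes). They were Mndal, Ifi203-ps and Dusp23. Left without the family genes, 1 of 13 passed (7.69%). Dusp23, a small dual-specificity phosphatase gene 835.5 kb before the cluster, fell from 637 and 601 counts in ff to 137 and 138 in dd (log2 change −1.89, SE 0.18; edgeR adjusted p = 0.0187; 0.062 without ff replicate 1). Between Dusp23 and the cluster, the cell adhesion gene Cadm3 was at 23.6 ± 1.15 CPM in ff and 23.0 ± 0.194 in dd (edgeR adjusted p = 0.85). The chemokine-binding receptor gene Ackr1, a marker of venules, was at 11.9 ± 3.81 and 4.96 ± 1.02 CPM (edgeR adjusted p = 0.0723), and Crp at 1.52 ± 0.796 and 0.763 ± 0.238 CPM (edgeR adjusted p = 0.256). Neither passed the test.

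Beyond Ifi205 the nearest tested gene was Fmn2, at 470.0 kb, with a log2 change of −0.15 (edgeR adjusted p = 0.802). Rgs7, at 1027 kb, had 24 and 21 counts in ff against 90 and 51 in dd (log2 change 1.96, edgeR adjusted p = 0.0756), and Fh1, at 1569 kb, a log2 change of 0.06 (edgeR adjusted p = 0.767). In the stretch from 1 to 5 Mb beyond the cluster none of 23 tested genes passed edgeR's test, with 4 at an unadjusted p under 0.05. From 1 to 5 Mb before it 13 of 66 passed (19.7%), 5 higher and 8 lower. Log2 changes of these 66 genes ran from −5.56 to 6.29, and both extremes passed edgeR's test. At 5 to 20 Mb the shares were 11.1% of 117 genes before the cluster and 10.7% of 112 beyond it. Differences between these shares were not tested.

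**Figure D3:**
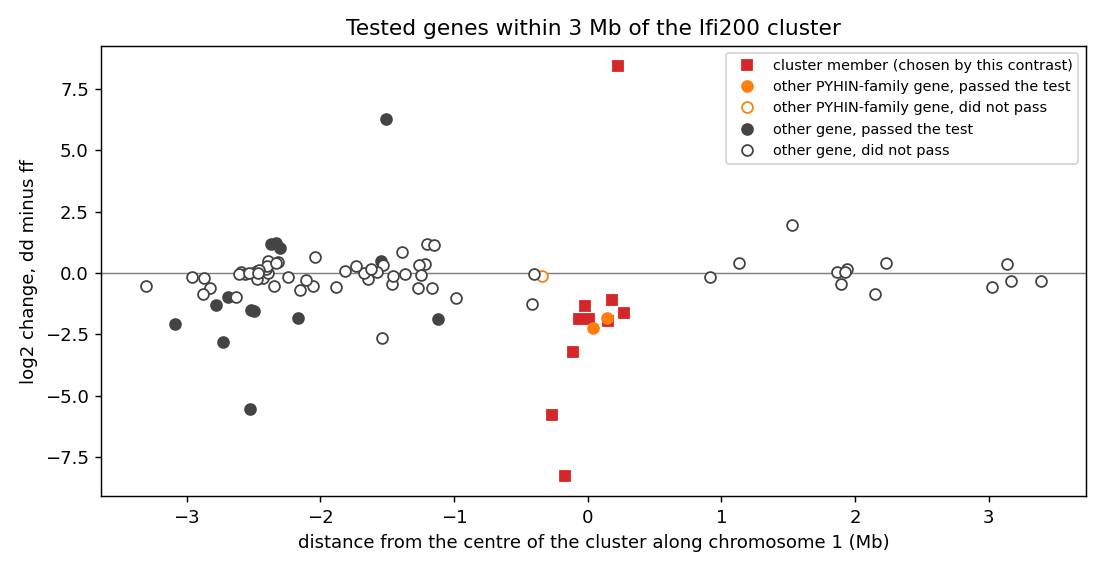
Log2 change of dd minus ff against distance from the centre of the cluster (Mb), for members (red squares, chosen by this contrast and shown without a call), other family genes (orange) and other genes tested (black), with filled circles for genes that passed edgeR's test. Family genes and members within the cluster lie below 0 except Ifi202b, Aim2 at its edge lies at −0.11, and none of the genes to the right of the cluster passed.

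The cluster answers to interferons, and genes of that response elsewhere in the genome were compared by the same fit. Among 50 tested interferon-induced genes outside the cluster, 11 fell (22.0%) and none rose. Over all tested genes 3.86% were called lower and 4.52% higher. A log2 change below 0 was found for 46 genes of the list, and for 9217 of all 18530 tested genes. The median of the list was −0.60, and its changes lay between −2.24 and 0.79. Ifit3, an antiviral tetratricopeptide gene, fell from 24.6 ± 4.89 to 5.17 ± 1.51 CPM (log2 change −2.24, edgeR adjusted p = 0.0246), and Ifi27l2a from 48.3 ± 1.22 to 20.5 ± 1.09 CPM (−1.24, edgeR adjusted p = 0.0165). The guanylate-binding GTPase genes Gbp3, Gbp4, Gbp5 and Gbp7 (log2 changes −1.15, −1.05, −1.04 and −0.90) fell too, as did the immunity-related GTPase genes Iigp1 (−1.44), Tgtp1 (−1.39) and Irgm2, whose dd level was 0.354 of the ff level. The remaining calls were Ifit2 (−1.15) and the chemokine gene Cxcl10 (−1.51). Ifi206 and Ifi213 changed more than any of the 11, but they were chosen for near on/off counts, so nothing is read from this. Ifit3 fell by more than Ifi203, Ifi204, Ifi205, Ifi207, Ifi208 and Ifi211, and by less than Ifi209. With 1 ff library left out the count of falls was 0 (without replicate 1) or 7 (without replicate 2), and with 1 dd library left out it was 5 (without replicate 1) or 12 (without replicate 2).

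Isg15, a ubiquitin-like protein gene, and Ifit1 did not pass the test. Isg15 had 995 and 1015 counts in ff against 214 and 835 in dd, and Ifit1 had 1252 and 1571 in ff and 241 and 1172 in dd (edgeR adjusted p = 0.372 and 0.41). The dd libraries stood at 9.06 and 27.6 CPM for Isg15 and 10.2 and 38.7 CPM for Ifit1. Without dd replicate 2 both genes passed edgeR's test (adjusted p = 0.0388 and 0.0451). Over the list, 42 of 50 genes were higher in dd replicate 2 than in dd replicate 1, with a median log2 difference of 0.57, and 13 were at least 2-fold higher there. Among the members 3 of 10 were higher in dd replicate 2, with a median difference of −0.06 and none 2-fold higher. Ifi206 and Ifi213, with 1 or 2 counts in each dd library, could hardly differ on this scale of CPM + 0.5 (by 0.047 and 0.025). Over all tested genes 9231 of 18530 were higher. This look at the dd libraries was added after their values were seen, and the difference between the lists was not tested.

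**Figure D4:**
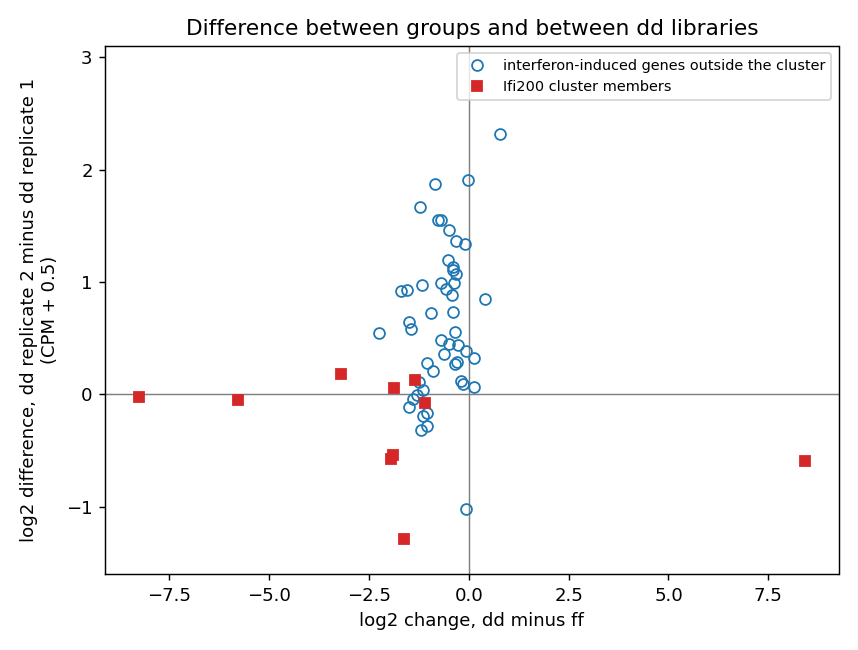
Log2 difference between dd replicate 2 and dd replicate 1 (CPM + 0.5) against the log2 change of dd minus ff, for 50 interferon-induced genes (open circles) and the 10 members (red squares). Most circles lie above 0 on the vertical axis, whereas the members lie between −1.29 and 0.18, with Ifi213, Ifi206 and Ifi202b far out on the horizontal axis. Few dd counts hold Ifi206 and Ifi213 near 0 on the vertical axis.

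In the signalling that leads to this response, 1 of 23 tested genes rose and 2 fell (13.0% called, against 8.39% of all tested genes). Ifngr2, a chain of the interferon gamma receptor, rose from 75.7 ± 10.3 to 138.7 ± 0.965 CPM (log2 change 0.87, edgeR adjusted p = 0.0277). The receptor-bound kinase gene Jak1 fell from 351.7 ± 63.4 to 195.6 ± 3.95 CPM (−0.85, edgeR adjusted p = 0.0402), and Socs3, a feedback inhibitor of cytokine receptors, from 52.7 ± 13.2 to 16.3 ± 2.67 CPM (−1.69, edgeR adjusted p = 0.0264). The receptor chain gene Ifnar2, at a log2 change of −0.40 (adjusted p = 0.0675), and the transcription factor gene Irf7 (−0.22, adjusted p = 0.821) did not pass edgeR's test. Irf7 also differed between the dd libraries, with 772 and 3238 counts. The interferon genes Ifnb1 and Ifnk had no count in any library. Ifne had 12 and 35 counts in ff against 50 and 59 in dd and did not pass (log2 change 1.455, edgeR adjusted p = 0.163). Ifng, with 12 and 3 counts in ff against 3 and 1 in dd, was not tested. All 3 calls were lost when ff replicate 1 was left out, and also when either dd library was (adjusted p = 0.0768 for Ifngr2, 0.129 for Jak1 and 0.0768 for Socs3 without dd replicate 2).

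Among 15 tested genes of DNA sensing and the inflammasome, 2 rose and 1 fell, where 4.52% of all tested genes were called higher and 3.86% lower. Pycard, the adaptor that joins Aim2 to caspase, rose from 20.7 ± 0.190 to 33.5 ± 2.57 CPM (log2 change 0.69, edgeR adjusted p = 0.0346). Casp1, the caspase itself, rose from 20.3 and 23.5 to 37.6 and 42.4 CPM (0.87, edgeR adjusted p = 0.0303). Gsdmd, the pore protein it cleaves, fell from 51.9 ± 3.62 to 35.1 ± 2.33 CPM (−0.57, edgeR adjusted p = 0.0429). Tmem173, which encodes STING, was at 77.7 ± 26.6 and 32.2 ± 3.14 CPM and did not pass (edgeR adjusted p = 0.0504), but it passed without ff replicate 2 (0.0178), with upper quartile factors (0.0483) and with the DESeq2 Wald test (7.1e-05). All 3 calls were lost when ff replicate 1 was left out, and also when either dd library was (adjusted p = 0.0906 for Casp1, 0.111 for Pycard and 0.146 for Gsdmd without dd replicate 2), and those of Pycard and Gsdmd also without ff replicate 2 (0.0818 and 0.108).

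Markers of the cells that carry much of this response moved as well. Here fell and rose mean called by edgeR, where 3.86% of all tested genes were called lower and 4.52% higher. Of 14 macrophage markers 7 fell and none rose (median log2 change −0.86, range −1.38 to 1.09). At an unadjusted edgeR p under 0.05, 11 were lower and 1 was higher. The summed level of macrophage markers was 599.9 and 706.8 CPM in ff and 483.9 and 471.6 CPM in dd, with no marker at 0. Lyz2 among them fell from 176.1 ± 27.6 to 95.7 ± 2.64 CPM (SD, n = 2; edgeR adjusted p = 0.0314), a call lost without ff replicate 1 or either dd library (adjusted p = 0.0532, 0.0906 and 0.0899). Of 7 dendritic cell markers 1 fell (summed level 50.6 to 53.3 CPM in ff and 32.7 to 33.4 CPM in dd), and of 9 T and NK cell markers 2 fell (31.6 to 38.4 CPM in ff and 13.5 to 14.6 CPM in dd). All 9 endothelial markers fell (1340 to 1508 CPM in ff and 722.1 to 737.3 CPM in dd), as did 5 of 10 stromal markers (11803 to 13416 CPM in ff and 7059 to 9511 CPM in dd). Epithelial markers were higher, 5 of 10 (1105 to 1366 CPM in ff and 2659 to 3053 CPM in dd), and so were 3 of 5 B and plasma cell markers tested (113.1 to 119.7 CPM over 8 genes in ff and 507.0 to 990.8 CPM in dd). Of this last sum the single gene Jchain held 34.7 and 58.5 CPM in ff and 439.5 and 894.6 CPM in dd, so the sum mainly follows Jchain. None of 4 tested neutrophil markers and none of 7 muscle markers passed edgeR's test (1 and 0 at an unadjusted p under 0.05), and the neutrophil gene Elane had no count in any library. These shifts went along with the lower counts of the members, and their part in them was not tested.

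Genes elsewhere with the pattern most like the near on/off members were sought over the 4 libraries, by the distance between log2 CPM profiles centred on each gene's mean. Nearest to Ifi213 were Gm49708 on chromosome 16 (distance 0.39; 190 and 231 counts in ff and 0 in both dd libraries), Guca1b on chromosome 17 (distance 1.77; 90 and 66 in ff and 0 in dd) and Unc80 on chromosome 1 (distance 1.83; 66 and 81 in ff and 0 in dd). Nearest to Ifi202b were the pseudogenes Gm7993 on chromosome 5 (distance 0.30; 11 and 9 counts in ff against 1644 and 1129 in dd) and Gm13736 on chromosome 2 (distance 0.54; 4 and 5 in ff and 753 and 928 in dd) and the immunoglobulin segment Igkv3-12 on chromosome 6 (distance 0.71; 0 and 2 in ff and 358 and 350 in dd). Mean dd levels of at most 0.02 of ff stood at 0.0809% of tested genes, 2 of them members, and levels of at least 50 times ff at 0.507%, 1 of them a member. The members were chosen for such differences, so nothing is read from their place among these genes.

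Library totals ranged from 24619850 to 32451670 counts. Log2 CPM of tested genes correlated at 0.988 between replicates of either group and at 0.951 to 0.968 across groups, over genes, which are not independent replicates. Mapk14, the targeted gene, had no lower level in the dd libraries (3074 and 2710 counts in ff against 2481 and 3429 in dd; log2 change 0.28, edgeR adjusted p = 0.12), so the directions given here rest on the labels ff and dd. A whole-gene count does not show whether single exons are missing.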

How the data were processed

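Uterine RNA was isolated with TRIzol and made into Illumina TruSeq libraries, per the labels' protocols, with poly-A purification per the series design text. STAR, edgeR and the build mm10 are named in the submitters' processing notes. How reads were counted, with which annotation and strand setting, and what was done with multiply mapped reads is not given in these sources. The deposited table holds whole-number counts per gene and library, rescaled counts (signal, not used), the authors' FPKM values per the file headers (the design text says RPKM), and a fold (ratio) and an unadjusted p-value deposited by the authors, neither of which is printed.

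Counts were compared with edgeR 4.0.16 in R 4.3.3 (TMM, filterByExpr, glmQLFit and glmQLFTest, no block, all 4 libraries), with Benjamini-Hochberg adjustment over 18530 genes and calls at an adjusted p under 0.05. SEs are the log2 change over the root of the F statistic. Ratios with few counts use pooled counts over TMM-scaled library sizes with exact 95% counting intervals. The fit was tested on simulated counts. Gene positions came from GENCODE M21 and promoters from RefSeq (GRCm38.p6). Promoters were aligned with Biopython 1.88.

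Members, lists and tests were chosen with earlier results of these data known, and the motifs after the promoters were seen. Named by rule were all members, other family genes in the table, Mapk14, the 4 nearest tested non-family genes on each side, 4 genes with the smallest p per pathway list with Irf7, Isg15 and Ifit1, the most abundant marker of each list, and 3 genes most alike in pattern to Ifi213 and to Ifi202b. Some genes that the rule names are not reported here. Further called genes of the lists were named after their values were seen. Of 10 further family symbols listed, 4 were in the table. Among those not in it were Pyhin1, Mnda, Pydc3 and Pydc4, given above as other names of members. Alternatives were limma 3.58.1 on log2(FPKM + 0.5), the DESeq2 1.42.0 Wald test, other scalings and filters, a replicate block and each library left out in turn, with the lone library assumed to vary like the other group.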

Additional observations from a re-analysis of the deposited data

How the results depend on the processing

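Among all tested genes 1554 were called, against 2947 with no filter on low counts, 2860 with the DESeq2 Wald test and 90 to 1198 with 1 library left out. Calls among neighbours within 1 Mb were 3, against 5 with no filter, 6 within 2 Mb and 0 to 3 with 1 library left out. Calls among other family genes were 2, or 0 to 2 with 1 library left out. Interferon-induced calls were 11, against 18 with no filter or with the DESeq2 Wald test and 0 to 12 with 1 library left out. Interferon signalling calls were 3, against 5 with no filter or DESeq2 and 0 to 3 with 1 library left out. DNA sensing calls were 3, against 5 with no filter, DESeq2, upper quartile factors or total counts alone (added after seeing the data), and 0 to 2 with 1 library left out. Leaving out ff replicate 1 gave the lowest count for each of these. For interferon signalling and DNA sensing, leaving out dd replicate 1 gave the same lowest count. The cause was not tested.

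Deviations of same-numbered libraries correlated at 0.01, which does not show whether the libraries were paired, since a pairing could touch only some genes. With the replicate block 1531 of all tested genes and 16 interferon-induced genes were called. Pycard and Gsdmd lost their calls with the block, and Tmem173 gained one (adjusted p = 0.0228). Each member kept its direction under every scaling, with the block and without any 1 library. This was fixed in advance for members chosen by this contrast, whose groups did not overlap, and nothing is read from it. Depth limits Ifi206 and Ifi213 in dd and Ifi202b in ff, where each library held 1 or 2 counts and the ratios have wide counting intervals.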
